A study of Sus scrofa with 95 samples.

Results

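The insulin and insulin-like growth factor (IGF) axis was followed through 10 genes, taken as the rows of the deposited gene table whose symbol is IGF1, IGF1R, INSR, IRS1, IRS2, IGFBP1, IGFBP2, IGFBP3, IGFBP4 or IGFBP5. Each of the 10 was found, among 35670 genes in all. The tissue came from infant pigs of 5 to 10 kg, 19 animals in 3 arms, and every animal gave 1 library from each of 5 organs (95 libraries). The control arm (8 animals, 4 of them female) had anesthesia alone and no drug. The CPB arm (7 animals, 3 female) had cardiopulmonary bypass, in which a pump and oxygenator replace heart and lungs, with deep hypothermic circulatory arrest of 75 minutes, in which the cooled animal's circulation is stopped, and no drug. The third arm (4 animals, 2 female) had the same bypass and arrest with 75 mg of linrodostat, an inhibitor of the tryptophan-degrading enzyme IDO1. No arm had bypass without arrest or linrodostat without bypass, so these cannot be told apart here. Kidney cortex and terminal ileum were taken just before euthanasia, and liver, left ventricle and right lower lung lobe just after it, each after passive drainage of blood.

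Insulin binds the insulin receptor (INSR) and IGF1 binds the closely related IGF1 receptor (IGF1R). Both receptors phosphorylate the adaptors IRS1 and IRS2, which switch on the PI3K-AKT cascade, keep FOXO transcription factors out of the nucleus, and so favour glucose uptake, protein synthesis and lipid synthesis. In the circulation most IGF is held by binding proteins (IGFBPs), which extend its life and limit or direct its access to the receptor. The liver is the classical source of circulating IGF1 under growth hormone, and hepatic IGFBP1 is repressed by insulin and raised by fasting and stress hormones.

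Library totals were 19957000 to 53628000 expected counts, with a median of 35115000, and heart was the shallowest organ with 19957000 to 27219000. Heart libraries carry a batch label of their own, and the other 4 organs share one, so heart against another organ cannot be told apart from that label, whereas comparisons of arms within an organ are free of it. Defining markers of each labelled organ were present. The summed level of cardiomyocyte, kidney, hepatocyte and lung epithelial markers was higher in every library of its own organ than in any library of another organ, and enterocyte markers overlapped, from 1128 CPM (counts scaled to a library of 1000000) in ileum to 4617 CPM in liver. A set of 5 lung libraries (CPB animals 19, 21 and 25, linrodostat animals 18 and 20) held 9.66 to 72.3 CPM of summed kidney markers, against 1.39 to 3.19 CPM in control lungs. The kidney of linrodostat animal 12 held 1219 CPM of summed hepatocyte markers, against 120 to 362 CPM in the other 18 kidneys. Where a lung result was refitted, the 3 lungs above 30 CPM of kidney markers (CPB animals 19 and 25, linrodostat animal 20) were left out and the other 2 kept.

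The members differed widely between organs. Levels between organs are given as CPM normalised over all 95 libraries (trimmed mean of M values, TMM), and the order of organs was tested in the 8 control animals by an exact two-sided permutation test that flips the organs within an animal. Of 40 tests of neighbours in the order, 16 passed at an adjusted p (Benjamini-Hochberg over the 40) under 0.05. The smallest p that 8 pairs allow is 0.0078, adjusted to 0.0208 here. Among secreted binding proteins, the liver was far above the next organ for 3 genes. IGFBP1 stood at 1303 ± 562 CPM (SD, n = 8) in control liver and at 0.065 to 0.247 CPM on average in the other 4 organs, which did not differ from their neighbours (adjusted p 0.585 to 0.606). IGFBP2, the main binding protein of early life, stood at 4776 ± 1090 CPM (SD, n = 8) in liver, 140 ± 48.1 in kidney, 29.7 ± 13.4 in heart, 17.6 ± 11.2 in lung and 11.7 ± 5.35 in ileum. The steps from liver to kidney and from kidney to heart passed, each in 8 of 8 animals with adjusted p = 0.0208 in the exact permutation test, and the steps from heart to lung and from lung to ileum did not. IGFBP4, which blocks IGF action until it is cleaved by the protease PAPPA, stood at 1115 ± 307 CPM (SD, n = 8) in liver against 137 ± 14.3 in lung and 138 ± 52.5 in kidney, and the step from liver to lung passed.

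IGFBP3 and IGFBP5 had another order. IGFBP3, which carries most IGF in the blood, was highest in control kidney at 286 ± 67.2 CPM (SD, n = 8), then liver at 156 ± 36.2, lung at 31.9 ± 13.6, and ileum and heart at 13.6 ± 7.97 and 12.5 ± 4.71. Each step down to heart passed in 8 of 8 animals, and heart and ileum did not differ beyond their spread. IGFBP5, a binding protein that also sticks to extracellular matrix, averaged 1017 ± 629 CPM (SD, n = 8) in kidney and 689 ± 163 in heart, a step that did not pass (adjusted p = 0.149, exact permutation test). Lung, ileum and liver lay below these at 88.3 ± 33.0, 86.3 ± 72.2 and 24.9 ± 10.7 CPM, and the step from heart to lung passed.

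The receptors and adaptors had orders of their own. IGF1R averaged 141 ± 32.7 CPM (SD, n = 8) in control kidney, 120 ± 31.8 in heart, 45.1 ± 11.4 in lung, 22.2 ± 10.6 in ileum and 11.4 ± 2.63 in liver. Its steps passed except that from kidney to heart. INSR averaged 81.2 ± 17 CPM (SD, n = 8) in heart, 69.8 ± 18.3 in kidney, 46.5 ± 14.4 in liver, 19.2 ± 5.32 in lung and 11.6 ± 6.91 in ileum, and the steps from kidney to liver and from liver to lung passed. IRS1 averaged 59.6 ± 30.4 CPM (SD, n = 8) in liver, 47.9 ± 11.0 in heart and 44.4 ± 14.2 in kidney, with no passing step among these, and 18.4 ± 3.92 in lung and 13.9 ± 4.94 in ileum. IRS2, the adaptor through which insulin acts most in liver, averaged 196 ± 63.1 CPM (SD, n = 8) in liver and 145 ± 25.2 in heart, a step that did not pass (adjusted p = 0.0551, exact permutation test), and then 33.1 to 35.1 CPM in ileum, kidney and lung, where neighbours did not differ beyond their spread. IGF1 itself had low CPM in every organ, liver included, and whether the gene model or the counting lowers these values was not tested. Its control means ran from 1.01 CPM in lung to 2.90 ± 1.10 CPM (SD, n = 8) in heart, liver stood at 2.39 ± 2.61, and none of its 4 steps passed.

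**Figure D1:**
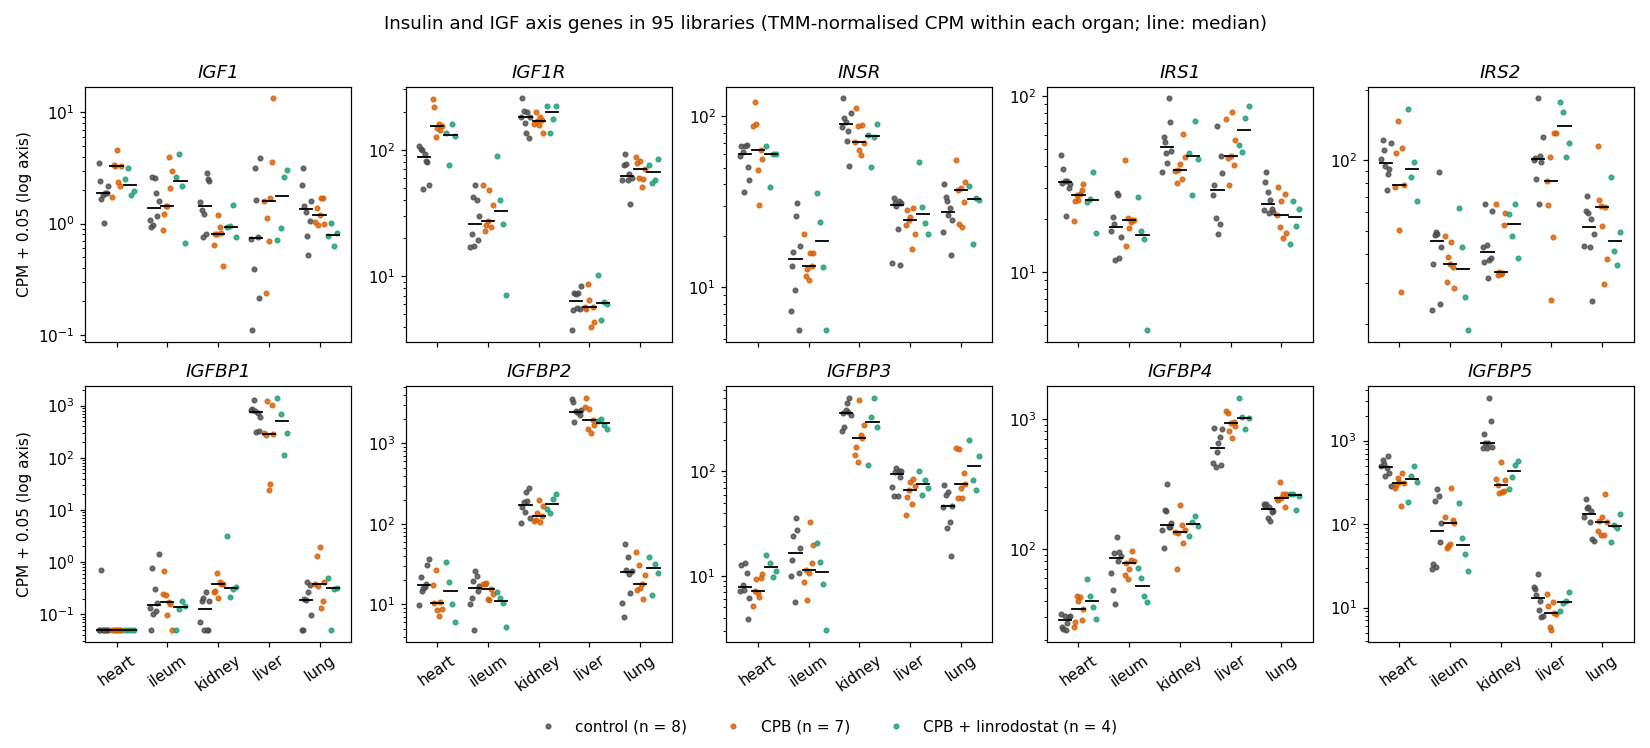
CPM normalised within each organ (log axis, 0.05 added so that libraries at 0 show) of the 10 genes in 5 organs, 1 point per library, in control (8), CPB (7) and CPB with linrodostat (4) animals, with a line at each median. IGFBP1 and IGFBP2 stand highest in liver, and IGF1R lowest in liver; in kidney the CPB points for IGFBP5 (232 to 552) lie below all control points (805 to 3252).

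To ask what bypass with arrest did to these genes, CPB was compared with control in each organ by edgeR's quasi-likelihood test over all genes, with Benjamini-Hochberg adjustment and a threshold of 0.05, on CPM normalised within the organ. The 10 genes gave 48 tests in 5 organs, since IGFBP1 was too low to test in heart and ileum. Of these 6 passed: 3 rose and 3 fell, and 16 had an unadjusted p under 0.05. Over all genes tested, 4165 of 14890 in heart, 932 of 17869 in ileum and 6256 of 17653 in kidney also had one. So had 6050 of 15406 in liver and 3962 of 17849 in lung. By organ, 2 of 9 members passed in heart (background over all genes tested: 11.9%), 0 of 9 in ileum (background 0%), 2 of 10 in kidney (background 21.1%), 1 of 10 in liver (background 26.9%) and 1 of 10 in lung (background 4.71%). The shares of members in kidney and liver were no higher than the background, and those in heart and lung rest on 2 genes and 1 gene. The spread between animals was widest in ileum (biological coefficient of variation 0.526, the other organs 0.339 to 0.365). In simulated counts, where only a small share of genes was changed, 22% of 2-fold changes were recovered in ileum, against 52% to 61% in the other organs. These rates are not the power of the tests made here, and why no member passed in ileum was not tested. Members' median log2 fold changes were 0.19 in lung (0.01 over all genes tested), -0.06 in ileum (-0.02), -0.15 in heart (-0.02), -0.18 in liver (-0.03) and -0.38 in kidney (-0.03). Between CPB and control, 2 of 50 member and organ pairs did not overlap, IGF1R in heart and IGFBP5 in kidney. The share of all genes without overlap was not counted, so this number has no background beside it. In bulk tissue, fewer cells of a type and less RNA per cell cannot be told apart.

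The receptor IGF1R rose in heart. Control hearts held 49.0 to 107 CPM with a median of 87.1, and CPB hearts 126 to 251 with a median of 153, so the groups did not overlap. The mean went from 82.8 ± 21.7 (SD, n = 8) to 172 ± 44.9 CPM (SD, n = 7), a log2 fold change of 1.05 ± 0.19 (SE), or 2.07-fold (95% interval 1.57 to 2.73), with an adjusted p of 0.00143 (edgeR). Leaving out any 1 of the 19 hearts kept the call. Beside this, 2 of 10 fibroblast and smooth muscle markers and 2 of 9 macrophage markers rose in heart. Log2 fold changes were below 0 for 4 of 10 and 5 of 9 of them, with medians of 0.09 and -0.07. The macrophage sum had a median of 340 CPM in control and 325 CPM in CPB. The fibroblast and smooth muscle sum had a median of 5928 CPM (4743 to 7141) in control and 8674 CPM (5347 to 10404) in CPB, and its part in the IGF1R value was not tested. In the other 4 organs the IGF1R estimates lay between -0.13 and 0.17 on the log2 scale and none passed. INSR did not pass in any organ. Its estimates ranged from -0.18 in kidney to 0.36 in lung, and in heart it was 0.33 (95% interval -0.13 to 0.80).

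IGF1 fell in kidney. Control kidneys held 0.70 to 2.78 CPM (25 to 119 counts, median 1.39 CPM) and CPB kidneys 0.36 to 1.14 CPM (12 to 45 counts, median 0.76 CPM), and the groups overlapped. The log2 fold change was -1.11 ± 0.33 (SE), adjusted p = 0.0221 (edgeR), kept in 19 of 19 leave-one-out fits. The 3 highest controls were animals 14, 15 and 26. Control kidneys 1 and 26 had the highest summed fat cell markers of their arm (144 and 238 CPM, the others 11.2 to 67.9), and control 15 the highest summed monocyte and macrophage markers (1714 CPM, the others 221 to 611). Without controls 1, 15 and 26 the change was -0.84 with an adjusted p of 0.144 (edgeR). In liver IGF1 did not pass (log2 fold change 1.26, 95% interval -0.43 to 2.95, adjusted p = 0.259, edgeR). Control livers ranged from 0.059 to 3.87 CPM and CPB livers from 0.19 to 13.3 CPM, the latter in animal 25, whose nearest neighbour held 3.54 CPM.

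Neither adaptor passed in any organ. IRS1 in liver had a log2 fold change of 0.70 (95% interval 0.11 to 1.28) and an adjusted p of 0.0689 (edgeR). Control livers held 16.4 to 67.3 CPM (median 29.4) and CPB livers 31.0 to 80.9 CPM (median 45.5). IRS1 estimates were below 0 in heart (-0.32), kidney (-0.47) and lung (-0.27), and none passed. IRS2 estimates ran from -0.38 in liver to 0.28 in lung.

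The matrix-binding IGFBP5 fell in kidney and heart. In kidney, controls held 805 to 3252 CPM with a median of 934, and the high values were animals 14 (3252) and 15 (1724). CPB kidneys held 232 to 552 CPM with a median of 292, so no CPB kidney reached the lowest control. The log2 fold change was -2.03 ± 0.31 (SE), which is 0.25-fold (95% interval 0.16 to 0.39), with an adjusted p of 0.000249 (edgeR), and every leave-one-out fit kept the call. Kidney markers of fibroblasts and smooth muscle also differed: 5 of 10 fell, 9 of 10 had a log2 fold change below 0, and the summed level was 1682 to 5124 CPM (median 3486) in control and 814 to 2854 CPM (median 1899) in CPB. Macrophage markers fell in 4 of 9, with summed levels of 221 to 1714 CPM in control and 201 to 427 CPM in CPB. The IGFBP5 change was -1.59 (adjusted p = 0.00301, edgeR) with the fibroblast and smooth muscle sum as a covariate, -1.93 (adjusted p = 0.00121) with the macrophage sum, and -2.16 (adjusted p = 0.000956) without controls 1, 15 and 26. The corresponding IGF1 values were -0.85 (adjusted p = 0.142), -0.83 (adjusted p = 0.1) and -0.84 (adjusted p = 0.144), so the IGF1 call ended in each.

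**Figure D2:**
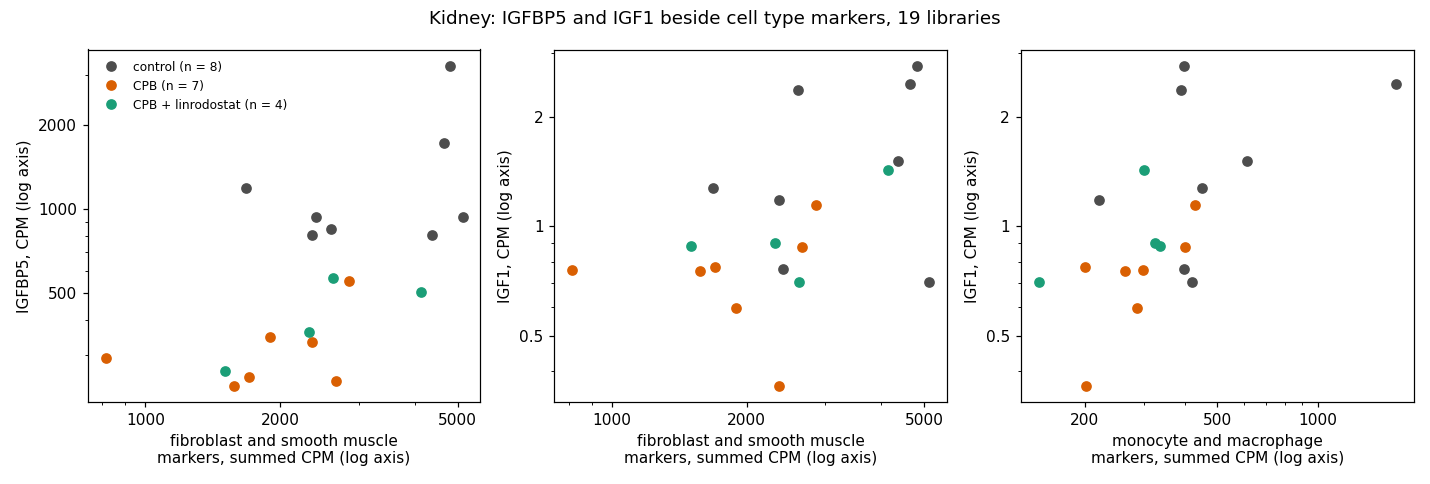
CPM of IGFBP5 and IGF1 (vertical, log axes) against summed CPM of fibroblast and smooth muscle or of macrophage markers (horizontal, log axes) in 19 kidneys, 1 point per library, coloured by arm. All control points for IGFBP5 (805 to 3252) lie above those of both CPB arms (232 to 565), while the IGF1 points of the arms overlap. The fibroblast and smooth muscle sums also differ by arm, at 1682 to 5124 CPM in control and 814 to 2854 CPM in CPB.

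In heart, IGFBP5 also fell, from 288 to 656 CPM (median 484) in control to 162 to 405 CPM (median 313) in CPB, with overlap. The log2 fold change was -0.66 ± 0.21 (SE), adjusted p = 0.042 (edgeR), and the call was lost in 10 of 19 leave-one-out fits (adjusted p up to 0.0837: controls 1, 4, 7, 13 and 14 and CPB animals 2, 6, 11, 19 and 25). IGFBP5 was -0.58 in liver (adjusted p = 0.097, edgeR), -0.16 in lung and -0.06 in ileum, none of which passed.

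IGFBP4 rose in liver and lung. Control livers held 423 to 848 CPM (median 599) and CPB livers 711 to 1157 CPM (median 931), a log2 fold change of 0.60 ± 0.17 (SE) with an adjusted p of 0.0151 (edgeR), kept in 19 of 19 leave-one-out fits. Control lungs held 164 to 222 CPM (median 202) and CPB lungs 211 to 328 CPM (median 244), a log2 fold change of 0.37 ± 0.10 (SE), adjusted p = 0.036 (edgeR). The lung call was lost in 9 of 19 leave-one-out fits, with adjusted p up to 0.077 (controls 10, 14, 15 and 26, CPB animals 2, 9, 11, 19 and 25), and without the 3 lungs above 30 CPM of kidney markers it was 0.35 with an adjusted p of 0.109. Lung macrophage markers fell in 5 of 9, with summed levels of 5994 to 10389 CPM in control and 3131 to 6451 CPM in CPB, and their part in the lung values was not tested.

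IGFBP3 in lung did not pass. Control lungs held 15.4 to 74.9 CPM (median 46.3) and CPB lungs 55.5 to 169 CPM (median 76.0), with the 2 highest values in animals 2 and 9. The log2 fold change was 1.09 (95% interval 0.39 to 1.78), adjusted p = 0.0641 (edgeR), and 1.27 with an adjusted p of 0.0967 without the 3 lungs above 30 CPM of kidney markers. IGFBP3 estimates were -0.65 in kidney and -0.43 in liver, which did not pass. IGFBP2 did not pass in any organ. Liver IGFBP2 was 2624 ± 555 CPM (SD, n = 8) in control and 2250 ± 849 CPM (SD, n = 7) in CPB.

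IGFBP1 did not pass in liver, where CPB animals spread widely. Control livers held 316 to 1268 CPM (median 764) and CPB livers 24.1 to 1226 CPM (median 289). CPB animals 11 and 19 held 24.1 and 31.4 CPM, whereas animals 9 and 21 held 1226 and 1018 CPM. The log2 fold change was -0.67 (95% interval -2.09 to 0.75, adjusted p = 0.49, edgeR). Outside liver IGFBP1 was close to the limit of counting. Kidney controls had 0 to 7 counts and CPB kidneys 5 to 19 counts, with a log2 fold change of 1.94 and an adjusted p of 0.079 (edgeR). In kidney IGFBP1 passed the count filter only through the bypass arms, so this value is no support for a rise. In lung the log2 fold change was 2.01 (adjusted p = 0.141, edgeR), with CPB animals 11 and 6 at 64 and 39 counts and every other lung at 16 or fewer. In heart IGFBP1 had 0 counts in 18 of 19 libraries and 15 counts in control animal 7.

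**Figure D3:**
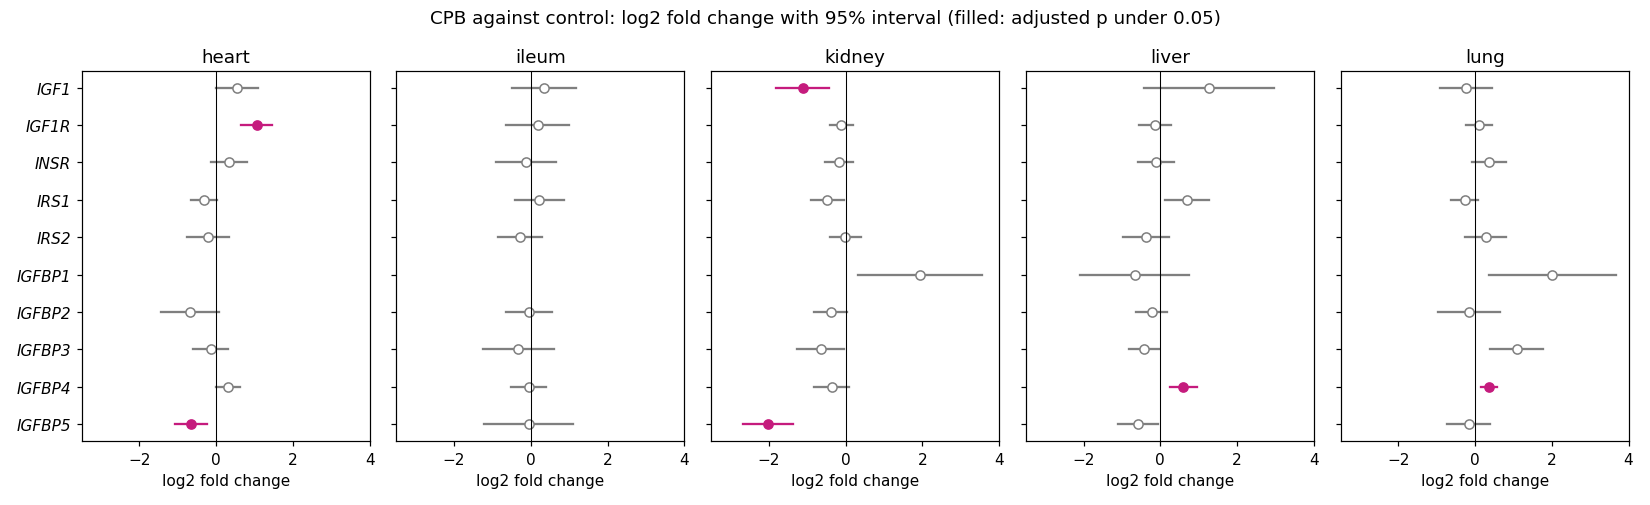
Log2 fold change of CPB against control (horizontal) with its 95% interval for each of the 10 genes in 5 organs; filled points passed (adjusted p under 0.05) and IGFBP1 was not tested in heart and ileum. In all 6 points are filled, IGF1R at 1.05 and IGFBP5 at -0.66 in heart, IGFBP5 at -2.03 and IGF1 at -1.11 in kidney, IGFBP4 at 0.60 in liver and 0.37 in lung.

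Whether the CPB response differed between organs was tested by 1 model over all 95 libraries (edgeR F test of the organ by CPB terms, 4 degrees of freedom). Of the 10 members 4 passed, against 12.9% of 20321 genes tested: IGFBP5 (adjusted p = 0.0211), IGFBP3 (0.0246), IGFBP4 (0.0341) and IRS1 (0.0477). With the animal as a block, since the 5 organs came from the same animals, IGFBP5, IGFBP3 and IGFBP4 still passed (adjusted p 0.0303, 0.0134 and 0.0343, edgeR), IRS1 did not (0.0854), and IGF1R (0.0404) and IGFBP1 (0.0367) passed where they had not (0.0507 and 0.06). Without heart, IGF1R had an adjusted p of 0.857 and IRS1 one of 0.0916.

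Contrasts of each organ with the mean of the other 4 were chosen after these values had been seen. They came from the fit without an animal term, which treats the 5 libraries of an animal as independent, and were not refitted with the block. Kidney IGFBP5 differed by -1.69 (adjusted p = 0.0108, edgeR; background 1.99% of genes called), heart IGF1R by 1.04 (adjusted p = 0.0167; background 3.85%), and liver IRS1 by 0.89 (adjusted p = 0.0291; background 8.02%). In lung, IGFBP3 differed by 0.78 to 2.23 (95% interval) without passing (adjusted p = 0.0541; background 0.148%). No member passed in the ileum contrast (background 1.62%). IGFBP3 and IGFBP4 passed in none of the 5 contrasts; for IGFBP4 the estimate farthest from 0 was kidney, at -0.70 (adjusted p = 0.0565, edgeR). For IRS1, neither the liver comparison on its own nor the F test with the animal as a block (adjusted p = 0.0854, edgeR) had passed.

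Linrodostat with CPB was set against CPB alone to ask whether the drug moved any of these responses. None of the 48 member tests passed (lowest adjusted p 0.549, edgeR), and 2 had an unadjusted p under 0.05, IGFBP3 in heart (log2 fold change 0.67) and IRS2 in liver (0.75). Over all genes tested, 901 of 14890 in heart, 1641 of 17869 in ileum and 822 of 17653 in kidney also had one. So had 1297 of 15406 in liver and 462 of 17849 in lung. DESeq2 and limma-voom called no member either. Over all genes the share called was 0.772% in liver and 0% in heart, lung, kidney and ileum alike. The liver count of 119 genes ranged from 1, without linrodostat animal 18, to 137 when 1 animal was left out. The 4 animals left wide intervals: kidney IGFBP5 was 0.40 (95% interval -0.34 to 1.14), heart IGF1R -0.46 (-0.95 to 0.03), liver IGFBP4 0.21 (-0.22 to 0.65) and liver IRS1 0.30 (-0.39 to 1.00).

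Against control, linrodostat with CPB gave 4 calls among 48 tests, in kidney and liver, and none in heart, ileum and lung (background 2.04%, 0.213% and 2.35%). With 1 animal left out, calls over all genes ranged from 75 to 396 in heart (304 with all), 0 to 278 in ileum (38) and 86 to 536 in lung (419). In kidney they ranged from 1901 to 3734 (3527) and in liver from 1857 to 3514 (3358). Comparisons of the linrodostat arm with control share their control animals with the CPB comparisons, so the values stand side by side and are no second support. In kidney 2 of 10 passed (background 20%). IGFBP5 held 262, 364, 504 and 565 CPM in the 4 animals, below every control, with a log2 fold change of -1.63 ± 0.38 (SE), adjusted p = 0.00569 (edgeR), kept in each leave-one-out fit. IGFBP1 in kidney had a log2 fold change of 3.56 ± 0.84 (SE), adjusted p = 0.00577 (edgeR). No control kidney was above 7 counts, so the gene passed the count filter only through the bypass arms, where it was higher. Its call is therefore no support for a rise. Its values were 3.17 CPM in animal 12 and 0.16, 0.26 and 0.29 CPM in the others, against 0 to 0.21 CPM in control. Without animal 12 the change was 1.53 with an adjusted p of 0.225 (edgeR). That kidney is the library with 1219 CPM of hepatocyte markers.

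In liver 2 of 10 passed (background 21.8%). IGFBP4 held 836, 1008, 1032 and 1449 CPM, a log2 fold change of 0.81 ± 0.20 (SE), adjusted p = 0.00821 (edgeR), kept in each leave-one-out fit. IRS1 held 48.3, 52.5, 75.6 and 87.4 CPM, a log2 fold change of 1.00 ± 0.32 (SE), adjusted p = 0.0315 (edgeR), lost in 5 of 19 leave-one-out fits (controls 1, 7 and 14, linrodostat animals 20 and 24; adjusted p up to 0.125). Lung IGFBP3 held 66.0, 83.6, 141 and 199 CPM, a log2 fold change of 1.41 (adjusted p = 0.0532, edgeR; 1.61 and 0.0609 without the 3 lungs above 30 CPM of kidney markers), beside 1.09 in CPB without the drug. Beside the liver values, 5 of 9 macrophage markers and 3 of 6 markers of handling time fell, and 3 of 10 fibroblast and smooth muscle markers and 3 of 6 enterocyte markers rose. The macrophage sum was 1228 to 2431 CPM in control and 1180 to 1339 CPM with linrodostat. In kidney 5 of 6 markers of handling time rose in the same comparison. The part of these in the member values was not tested. Heart IGF1R held 75.9, 128, 136 and 160 CPM, which overlapped control, with a log2 fold change of 0.59 (adjusted p = 0.177, edgeR).

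**Figure D4:**
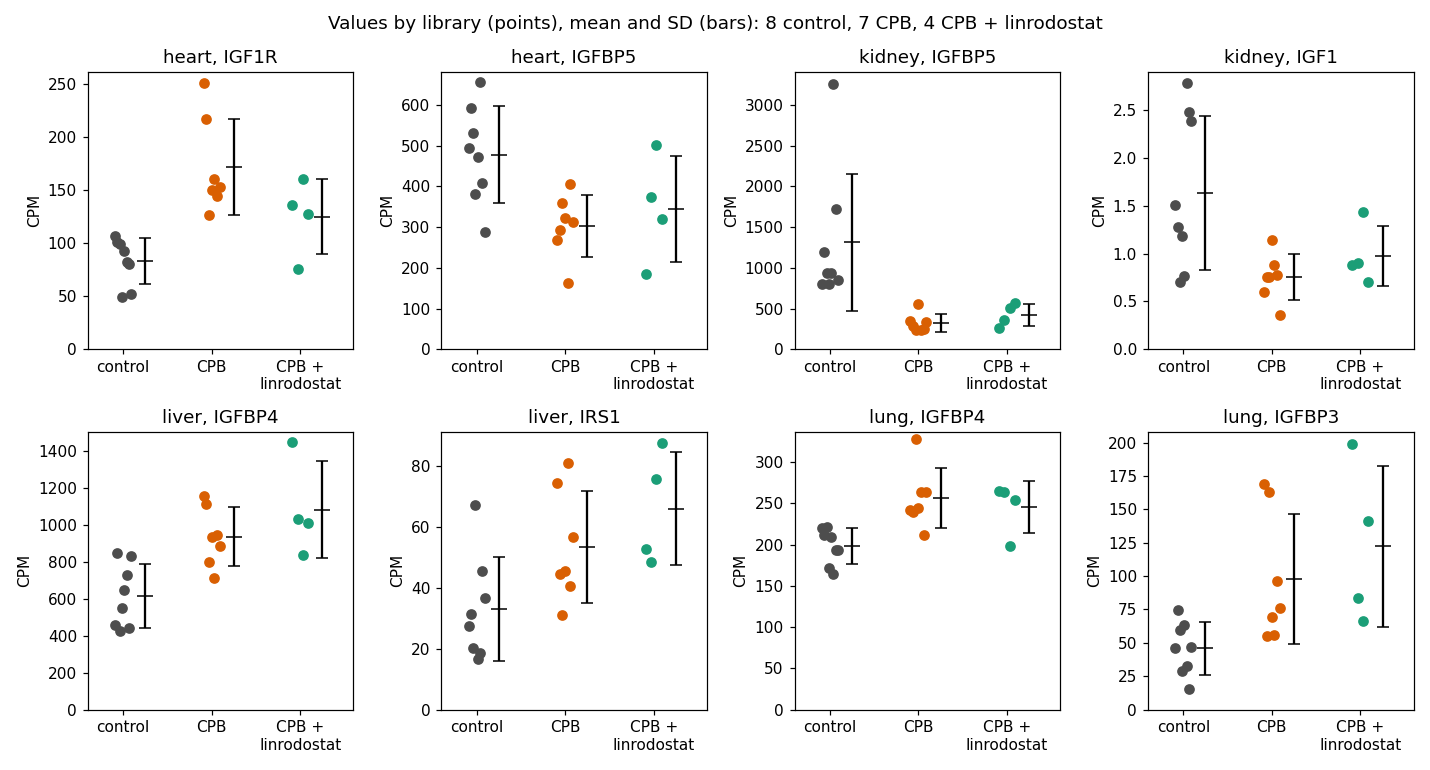
CPM in each library (points) with the mean and SD of its arm (bars) for 8 member and organ pairs, in control (8), CPB (7) and CPB with linrodostat (4) animals. Heart IGF1R in CPB (126 to 251) lies above all controls (49.0 to 107) and kidney IGFBP5 in both bypass arms (232 to 565) lies below all controls (805 to 3252). The other 6 panels overlap. The share of all genes without overlap was not counted.

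The wider pathway was read from 6 lists of 81 genes (79 of them analysed here). In CPB against control 11 of 76 tested passed in heart (14.5%, beside the background of 11.9%), 0 of 78 in ileum (0%), 14 of 79 in kidney (17.7%, beside 21.1%), 20 of 75 in liver (26.7%, beside 26.9%) and 5 of 76 in lung (6.58%, beside 4.71%). Of these calls 6 of 11 in heart, 11 of 14 in kidney, 10 of 20 in liver and 1 of 5 in lung were kept in every leave-one-out fit. Over all genes the calls then ranged in heart from 1257 to 2432 (1775 with all animals), in lung from 322, without CPB animal 25, to 1336 (840 with all), in liver from 3094 to 4570 (4151) and for kidney between 2881 and 3853 (3733). In heart, other ligands, receptors and carriers gave 2 risers of 9, among them the binding protein IGFBP6 (0.72, adjusted p = 0.0435) and stanniocalcin STC1 (1.75, adjusted p = 0.0499, edgeR), a PAPPA inhibitor. Of 23 genes of the PI3K-AKT cascade 3 rose in heart, led by RHEB, the GTPase that activates mTORC1 (1.24, adjusted p = 0.000259, edgeR), with GSK3B (0.64) and GSK3A (0.46). Of 13 negative regulators 3 rose and 2 fell. TRIB1, a pseudokinase, rose from 13.8 ± 2.08 (SD, n = 8) to 34.8 ± 11.3 CPM (SD, n = 7), and the phosphatase PTPN1, which dephosphorylates INSR, rose by 0.78. GRB10, an adaptor that binds and inhibits INSR and IGF1R, fell by 1.00 on the log2 scale (adjusted p = 0.00112, edgeR), from 81.1 to 119 CPM in control to 31.2 to 86.7 CPM in CPB, and SOCS1 fell by 1.02. ANGPTL4 fell by 1.63 (adjusted p = 0.0471, edgeR). The calls of STC1, IGFBP6, SOCS1, ENPP1 and ANGPTL4 were lost in at least 1 leave-one-out fit.

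In kidney, where 21.1% of all genes tested passed in either direction, 2 of 7 genes of growth hormone signaling fell, the receptor GHR (from 36.5 ± 4.86 CPM, SD, n = 8, to 21.8 ± 3.82, SD, n = 7; adjusted p = 0.00189, edgeR) and SOCS2, which growth hormone induces (-0.41). GHR held 30.9 to 46.0 CPM in control and 16.6 to 28.6 CPM in CPB, without overlap, and the share of all kidney genes without overlap was not counted. Of 24 PI3K-AKT genes 5 rose, led by the catalytic subunit PIK3CB (0.95, adjusted p = 0.000106, edgeR), and 3 fell, led by PIK3R2 (-0.63). Among the negative regulators TRIB3 rose by 1.24, and among FOXO factors and their targets SESN3 (-0.77) and FOXO4 (-0.36) fell.

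In liver, where 26.9% of all genes tested passed in either direction, G6PC1 and PPARGC1A rose. G6PC1, the last enzyme of glucose release, which insulin represses, rose by 1.81 (adjusted p = 0.0135, edgeR), from 81.5 to 1073 CPM in control to 672 to 2572 CPM in CPB. PPARGC1A, a coactivator of gluconeogenic genes, rose by 1.18 (adjusted p = 0.048), a call lost in 11 of 19 leave-one-out fits. Of 15 FOXO factors and genes insulin represses 2 rose and 3 fell, the latter including the ubiquitin ligase FBXO32 (-1.11), and of 10 genes insulin induces 2 fell, among them EGR1 (-1.20), and none rose. EGR1 is also a marker of handling time, of which 2 of 6 fell in liver. Of 23 PI3K-AKT genes 6 rose, with the regulatory subunit PIK3R1 (1.32) and RHEB (0.80), and 4 fell, with the leukocyte subunit PIK3CD (-1.18). Liver lymphocyte markers fell in 5 of 6 and macrophage markers in 4 of 9, and their part in the PIK3CD change was not tested. GHR rose by 0.69 in liver, a call lost in 11 of 19 leave-one-out fits.

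In lung, PIK3CD fell by 0.99 (adjusted p = 0.00162, edgeR), from 66.1 to 112 CPM in control to 31.2 to 66.3 CPM in CPB, beside the lower macrophage markers given above; without the 3 lungs above 30 CPM of kidney markers it was -0.86 (adjusted p = 0.0221). PCK1, a gluconeogenic enzyme of kidney and liver, had a log2 fold change of 7.17 at 0 to 10.3 CPM. Without the same 3 lungs it was 3.26 with an adjusted p of 0.208 (edgeR). Control lungs held 0 to 0.12 CPM of PCK1, so it passed the count filter only through the bypass lungs. PCK1 is among the lung calls counted above.

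Over the 95 libraries, log2 CPM was set against its mean for the organ and arm, and the members' deviations were compared with those of 13022 named genes that averaged 1 CPM or more. These are correlations across libraries that share animals and depth, given as descriptions. Among the 45 pairs of members r ran from -0.11 to 0.80, and after IGF1R with INSR the next highest was 0.58. INSR followed IGF1R most closely of all these genes (r = 0.80), and IGF1R followed SH3PXD2A (0.83), KIF13A (0.82) and PKD1 (0.82). IRS2 followed FOXO3 (0.76), a transcription factor of the same pathway, and IGFBP5 followed LAMB2 (0.77), a laminin chain of basement membranes. IGFBP3 followed EDNRA (0.71), the endothelin receptor of smooth muscle, and IRS1 followed AKAP1 (0.67). Within single organs IGF1R with INSR ran from 0.60 to 0.90 and FOXO3 with IRS2 from 0.59 to 0.90, whereas IRS1 with AKAP1 ran from -0.28 in heart to 0.88 in liver. Ileum gave the highest r for 3 other pairs. EDNRA with IGFBP3 ran from 0.10 in liver to 0.93 in ileum, and LAMB2 with IGFBP5 from 0.38 in liver to 0.92. SH3PXD2A with IGF1R ran from 0.39 in heart to 0.98 in ileum. Ileum libraries also varied widely in tissue markers within an arm. Their fibroblast and smooth muscle sum was 1723 to 22573 CPM in control, 3381 to 16790 CPM in CPB and 1100 to 27838 CPM with linrodostat. The part of these markers in the ileum values, and in the r over 95 libraries, was not tested. The genes first for IGF1, GPR27 (0.65) and ANGPTL8 (0.60), reached 0.84 and 0.81 in liver and -0.17 and -0.51 in heart. IGFBP1, IGFBP2 and IGFBP4 had no gene above 0.57, with TAT, USHBP1 and GPC3 first. IGFBP1 and IGFBP3 lie 9.06 kb apart on chromosome 18, and IGFBP2 and IGFBP5 10.8 kb apart on chromosome 15, with no annotated gene between either pair (RefSeq, Sscrofa11.1). IGFBP1 and IGFBP2 were highest in control liver and IGFBP3 in kidney, and for IGFBP5 kidney and heart came first without differing beyond their spread.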

How the data were processed

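Values were expected counts per gene (Salmon) for 95 poly(A) RNA libraries, deposited by the authors as 1 table; STAR, Salmon, cutadapt, Trim Galore, MultiQC and bcl2fastq and the pig build Sscrofa11.1 are named in the submitters' processing notes, with no versions or settings given in the sources used here. From 92.7% to 96.6% of a library's values were whole; counts were rounded before testing. Replicates within an arm were compared: 275 pairs, 0 identical. Each organ was fitted alone over its 19 libraries with edgeR 4.0.16 (filterByExpr by arm, TMM, robust quasi-likelihood test, R 4.3.3), two-sided, with Benjamini-Hochberg adjustment over all genes tested. Fold changes between organs came from 1 fit on 95 libraries, and the exact permutation test used log2 CPM with a prior count of 2. The same animals gave all organs; same-animal deviations correlated with median r of 0.10 to 0.26 over 10 organ pairs. Alternatives were RLE size factors, no count filter, sex, 2 arms only, DESeq2 1.42.0, limma-voom 3.58.1 and leaving out each animal. Contrasts of 1 organ with the others, kidney marker covariates and the removal of libraries with markers of another tissue were chosen after seeing the data. The scripts were tested on simulated counts. Members and lists were chosen with earlier results of these data known. Named genes were the 10 members; of each pathway list, the passing genes with the 4 highest and 4 lowest log2 fold changes per organ (2 in the linrodostat contrasts); and the 3 genes most like each member. Gene positions came from RefSeq. Some results of the pathway lists are not reported here.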

Additional observations from a re-analysis of the deposited data

Results flagged for a closer look

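In 12 of 150 groups (10 genes, 5 organs, 3 arms) the highest or lowest library stood apart from the rest of its group. By chance the cutoff flags about 1 in 20 groups where values follow a normal distribution. Whether these CPM do was not tested, and some groups lie near 0, so the count cannot be read against that rate. In CPB livers IGF1 stood at 13.3 CPM in animal 25 (next 3.54). IGFBP1 stood at 0.657 CPM in the heart of control animal 7 (every other control at 0), 0.61 CPM in the ileum of CPB animal 6, and 3.168 CPM in the kidney of linrodostat animal 12 (next 0.287). IGFBP4 stood at 313.7 CPM in the kidney of control animal 13 and at 198.3 CPM in the lung of linrodostat animal 20, the lowest of its group and a lung with kidney markers. IGFBP5 stood at 273.1 CPM in the ileum of CPB animal 19, 552.1 CPM in the kidney of CPB animal 11 and 3252 CPM in the kidney of control animal 14. It also stood at 227.1 CPM in the lung of CPB animal 21, a lung with kidney markers that was kept in the refits. IRS1 stood at 43.33 CPM in the ileum of CPB animal 2, and IRS2 at 88.94 CPM in the ileum of control animal 14.

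The CPB effect differed between the 5 organs for IGFBP5 (adjusted p = 0.02105, edgeR F test), IGFBP3 (0.02464), IGFBP4 (0.03411) and IRS1 (0.04775). With the animal as a block the adjusted p was 0.0303 for IGFBP5, 0.0134 for IGFBP3 and 0.0343 for IGFBP4. IRS1 then did not pass (0.0854). IGFBP1 passed only with the block (0.0367). IGF1R passed with the block (0.0404) and with RLE size factors (0.0400, edgeR F test).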

How the results depend on the processing

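Where the members called in an organ changed with a setting, they changed by 1 or 2 genes. For CPB against control, heart went from 2 to 1 with no count filter and with sex as a covariate; liver from 1 to 2 with limma-voom; lung from 1 to 0 with no count filter and to 2 with DESeq2; kidney from 2 to 1 and lung from 1 to 0 under the settings added after seeing the data. For linrodostat with CPB against control, heart and lung went from 0 to 1 with DESeq2, kidney from 2 to 1 with DESeq2 or with 2 arms only (IGFBP1 was filtered out or had no adjusted p there), and liver from 2 to 1 with no count filter. Members with a differing organ response went from 4 to 2 with no count filter. With the animal as replicate block, and with RLE size factors, they were 5. The causes were not tested. With 1 animal left out, members called for CPB against control ranged from 0 to 2 in lung, 1 to 2 in heart and in liver and 2 to 3 in kidney, and stayed 0 in ileum; for linrodostat with CPB against control 1 to 2 in kidney and in liver, 0 to 1 in lung, and 0 in heart and ileum; for linrodostat with CPB against CPB 0 in each organ. Passing steps in the order of organs were 15 to 17 (16 with all). No result that passed, and no member with an unadjusted p under 0.05, reversed its direction; estimates near 0 were not followed. Over all genes, DESeq2 called 1731 in lung against 840 for CPB against control, 16 in ileum against 0, and for linrodostat with CPB against CPB 97 in ileum, 16 in heart, 4 in kidney and 3 in lung against 0 and 208 in liver against 119; for linrodostat with CPB against control it called 693 in heart against 304, 833 in ileum against 38 and 1107 in lung against 419. There no count filter gave 278 in lung and 0 in ileum, sex as a covariate or 2 arms only 0 in ileum, and RLE 72 in ileum. For CPB against control, removing control kidneys 1, 15 and 26 gave 2051 in kidney against 3733, and removing the lungs with kidney markers gave 147 against 840 (184 against 419 for the linrodostat arm against control). The arm of 4 animals and low counts of IGF1 and IGFBP1 limit precision.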
